A study of Mus musculus with 6 samples.

Results

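The 4 genes described here, Ccl3, Ccl4, Ccl5 and Xcl1, encode small secreted chemokines, and they were taken by symbol from the 20394 genes of the count table. All 4 were present in the table. Chemokines are proteins that draw leukocytes along a gradient, and each acts through receptors of the G protein-coupled class on the responding cell. Ccl3 (macrophage inflammatory protein 1α) binds Ccr1 among its receptors, and Ccl5 (RANTES) binds Ccr1 and Ccr3 among others. Ccl4 is macrophage inflammatory protein 1β. Xcl1 (lymphotactin) binds Xcr1, a receptor that marks the cross-presenting type 1 dendritic cell. In inflamed joints Ccl3, Ccl4 and Ccl5 are known as attractants of monocytes and T cells. Activated natural killer (NK) cells and CD8 T cells are textbook sources of Ccl5 and Xcl1.

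Messenger RNA was measured in single CD45+ cells, sorted from the synovium of C57BL/6 mice with antigen-induced arthritis. The male mice, 8 weeks of age at purchase, were immunized under the skin with 10 μg methylated bovine serum albumin (mBSA) in complete Freund's adjuvant and received 100 μg mBSA into the knee on day 21. PBS (2 samples) or 300 μg of the peptide PEPITEM (4 samples) was given into the peritoneum from that day, and joints were taken 3 days after the challenge and digested with collagenase D and DNase I. All mice of both groups therefore carried the arthritis, and no joint without it was sequenced.

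The table held 32953 cells and 486548899 unique molecular identifiers (UMIs, each marking 1 captured mRNA molecule). Its cell barcodes end in a number from 1 to 6, one for each library, but no source used here links these numbers to the PBS or PEPITEM samples, so the groups were not compared. The libraries held 2919 to 9345 cells and had median depths of 9923 to 14001 UMIs per cell. A UMI of Ptprc, which encodes CD45, was found in 95.8% of cells. Of the 16-base barcodes, 138 occurred in more than 1 library, in 276 cells. Among the sorted cells were 1006 granulocyte precursors, 284 progenitors and 886 precursor B cells, types whose usual site is the marrow.

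Cells were placed in classes by the UMIs of marker genes, none of which was a member. A cell joined 1 of 17 lineages when it carried at least 3 of that lineage's markers and its share of the list stood 0.2 above that of the next lineage. This gate placed 27982 cells (84.9%) in 29 classes and left 4971 cells ungated. Class names below stand for cells that met these markers. The gate for classical monocytes (Ly6c2, Plac8, Chil3 and Vcan) also took in macrophages, since 881 of its 4153 cells carried 3 or more UMIs of C1qa, C1qb and C1qc together, so its cells are called Ly6c2-gated. Levels are UMIs per 1000000 UMIs of the class (CPM), with exact 95% Poisson intervals, and shares of cells have 95% Wilson intervals. Both cover counting error only. The spread between samples is shown by the range over libraries, whose treatment is unknown.

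Ccl3, Ccl4 and Ccl5 lie on mouse chromosome 11 and Xcl1 on chromosome 1 (GRCm38, GENCODE vM21). Ccl3 occupies chr11:83647844-83649355 on the minus strand, and Ccl4 starts 13228 bases further along on the plus strand, at chr11:83662584-83664683. Ccl5 lies at chr11:83525778-83530518 and Xcl1 at chr1:164931644-164935527, both on the minus strand. Each has 3 exons. The stretches below are 90 bases of each coding sequence, in frame, from the first transcript of each gene, with cysteine codons in capitals. They are shown because the cysteines near the start of the mature protein name the families: Ccl3, Ccl4 and Ccl5 have adjacent cysteine codons, hence CC chemokines, and Xcl1 has a single one.
Ccl3: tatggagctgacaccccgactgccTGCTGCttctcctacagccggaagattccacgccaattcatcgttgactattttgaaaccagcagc
Ccl4: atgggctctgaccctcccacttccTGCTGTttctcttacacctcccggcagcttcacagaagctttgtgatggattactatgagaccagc
Ccl5: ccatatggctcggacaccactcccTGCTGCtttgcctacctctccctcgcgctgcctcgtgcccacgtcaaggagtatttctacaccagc
Xcl1: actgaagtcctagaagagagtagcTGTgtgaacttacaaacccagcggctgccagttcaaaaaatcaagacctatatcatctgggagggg
Counted from the start codon, the first capital codon is 34 in Ccl3 and in Ccl4, 33 in Ccl5 and 32 in Xcl1. The coding sequences of Ccl3 and Ccl4 were identical at 67.0% of aligned positions, those of Ccl3 and Ccl5 at 59.6%, and those of Ccl5 and Xcl1 at 36.6%. The longest run shared by the Ccl3 and Ccl4 transcripts was 9 bases, and no stretch of 31 bases of any of the 4 transcripts occurred in a transcript of another gene.

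Over all cells, Ccl4 had 147722 UMIs in 7681 cells (23.3%), Ccl3 59323 UMIs in 6173 cells (18.7%), Ccl5 64706 UMIs in 2068 cells (6.28%) and Xcl1 11575 UMIs in 769 cells (2.33%). The message of each gene was concentrated in few cells. The 330 cells (1% of the table) with the most UMIs of a gene held 39.8% of the Ccl3 UMIs, 36.7% of Ccl4, 58.8% of Ccl5 and 85.6% of Xcl1. By library, the level of Ccl3 over all cells was lowest in library 4 (75.9 CPM) and highest in library 1 (189 CPM). Ccl4 ranged from 218 CPM in library 6 to 493 CPM in library 1. Ccl5 ranged from 85.1 CPM in library 5 to 211 CPM in library 1. Xcl1 ranged from 12.8 CPM in library 4 to 33.9 CPM in library 2. These levels mix the makeup of a library with the level per cell, and fewer cells of a class and less mRNA per cell cannot be told apart in them.

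Among gated cells, myeloid classes held most of the Ccl3 and Ccl4 UMIs, and NK and T cells held most of the Ccl5 and Xcl1 UMIs. Ly6c2-gated cells held 23.3% of the Ccl3 UMIs, other gated monocytes and macrophages 14.1% and neutrophils 13.6%. These groups made up 12.6%, 9.91% and 33.5% of the cells, in this order. The neutrophil share of the Ccl3 and Ccl4 UMIs was thus below their share of the cells. For Ccl4, Ly6c2-gated cells held 16.2%, other gated monocytes and macrophages 11.4%, neutrophils 14.3%, plasmacytoid dendritic cells (pDC) 5.95% and basophils 5.10%. NK cells held 26.8% and T cells 28.4% of the Ccl5 UMIs, although they made up 0.83% and 2.98% of the cells. For Xcl1 the NK share was 32.0% and the T cell share 37.3%. Ungated cells, which were deep (median 21605 UMIs), held between 22.2% (Ccl5) and 31.3% (Ccl4) of the UMIs of each gene.

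**Figure D1:**
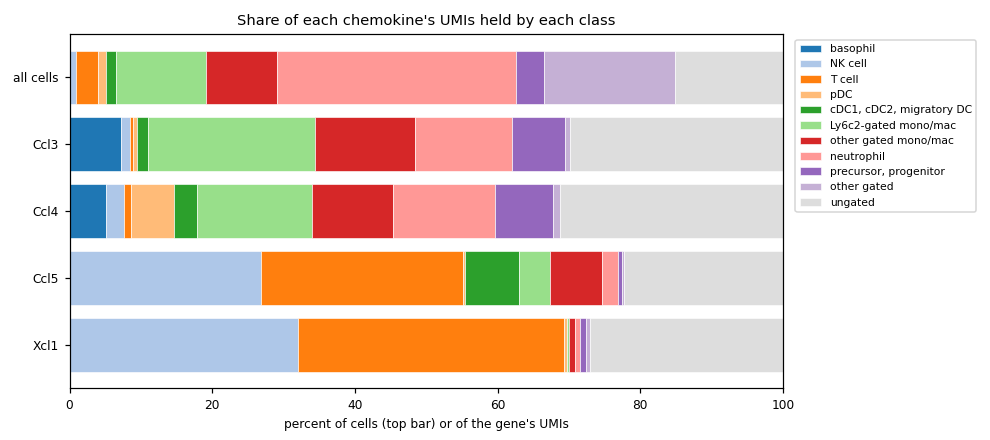
Horizontal bars show the percent of all cells (top bar) and of the UMIs of Ccl3, Ccl4, Ccl5 and Xcl1 (lower bars) that fell in each class or group of classes. Basophils, 0.12% of cells, held 7.24% of the Ccl3 UMIs, and NK and T cells together held most of the gated Ccl5 and Xcl1 UMIs.

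Basophils had the highest levels of Ccl3 and Ccl4 of any class. Basophils are rare granulocytes that take part in IgE responses and secrete interleukin 4, and 39 cells were gated as basophils from Mcpt8, Prss34, Cd200r3, Fcer1a, Ms4a2 and Gata2. Ccl3 stood at 15675 CPM (15210 to 16151) and was found in 39 of 39 cells. Ccl4 stood at 27482 CPM (26865 to 28110) and was found in 37 of 39 cells, 94.9% (83.1 to 98.6). Together the 2 genes made up 4.32% of all basophil UMIs. By UMI count, unscaled for transcript length, Ccl4 ranked 1 and Ccl3 ranked 2 among the 20394 genes in these cells.

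The level differed widely between individual basophils and between libraries. In a single basophil, Ccl3 and Ccl4 together made up between 0.00384% and 24.0% of the UMIs, with a median of 3.54%, and 31 of the 39 cells were at 1% or more. Library 1 (7 basophils) had 35730 CPM of Ccl3, library 2 (14 cells) 6202 CPM, library 3 (9 cells) 7058 CPM, library 4 (2 cells) 3567 CPM, library 5 (4 cells) 67674 CPM and library 6 (3 cells) 13782 CPM. Ccl4 had 63636, 12396, 19960, 10427, 83794 and 20869 CPM in libraries 1 to 6, so libraries 1 and 5 were the highest for both genes. Even the lowest of these values, from the 2 basophils of library 4, was above the highest library level of the next class. That level was 343 CPM of Ccl3 in NK cells and 2737 CPM of Ccl4 in pDC. The share of all genes with ranges apart between these classes was not computed. Because library 2 gave the most basophil UMIs, the pooled level of Ccl3 rose to 24158 CPM when that library was left out and Ccl4 rose to 40991 CPM. Mast cells, the tissue relatives of basophils, had 9 Ccl3 UMIs in 145 cells (12.3 CPM, 5.61 to 23.3) and 85.9 CPM of Ccl4. A single library, library 2, held 10 or more cells of both types, so their library ranges were not compared. Neither Ccl5 nor Xcl1 had a UMI in basophils, where 3 UMIs of the class would be 10.9 CPM.

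**Figure D2:**
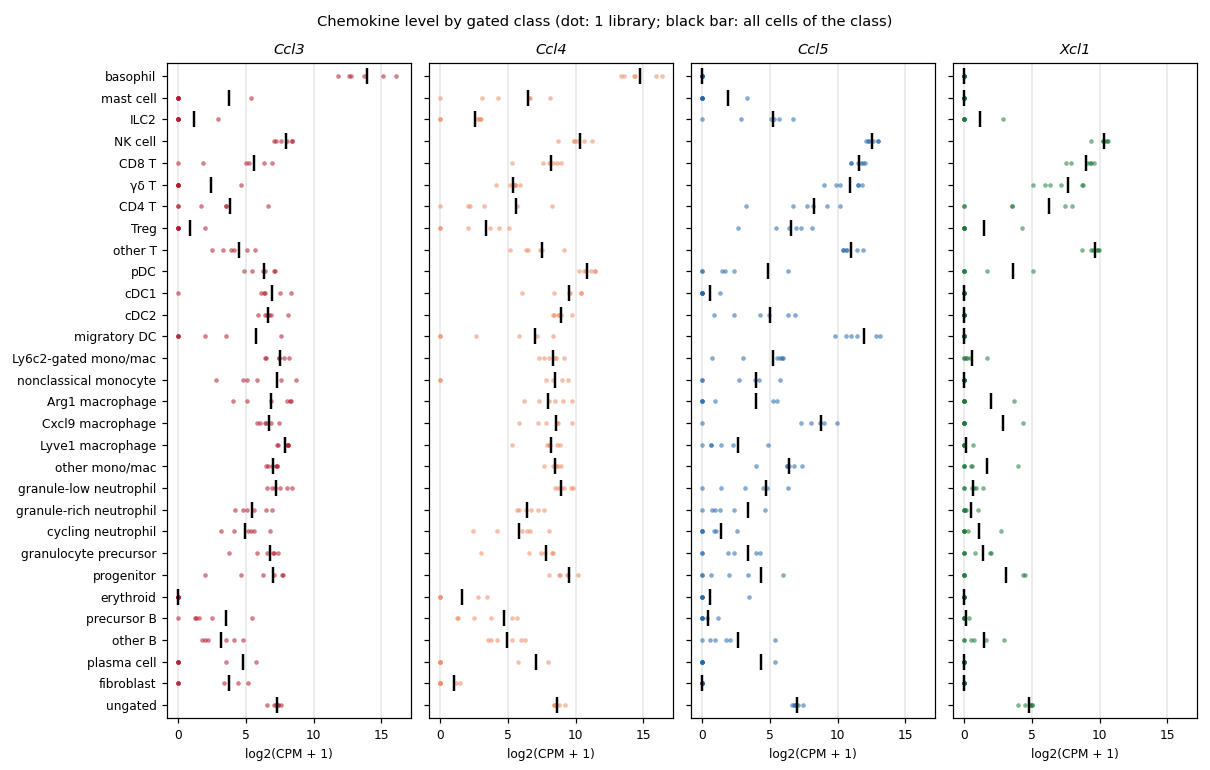
Level of Ccl3, Ccl4, Ccl5 and Xcl1 as log2(CPM + 1) in each gated class. Each dot is 1 barcode library and the black bar is the value over all cells of the class. Basophils stand apart for Ccl3 and Ccl4, and NK and T cell classes lead for Xcl1.

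Below basophils, the Ccl3 levels of the classes formed a gradual series. NK cells had 244 CPM of Ccl3 (226 to 262) and Ly6c2-gated cells 181 CPM (178 to 184). Lyve1 macrophages, gated from Lyve1, Cd163, Timd4 and Folr2, had 237 CPM (230 to 244). Over libraries, Lyve1 macrophages ran from 156 to 277 CPM with a median of 266 CPM, and Ly6c2-gated cells from 82.6 to 292 CPM with a median of 170 CPM. The ranges of these classes overlapped. Ccl3 was found in 33.7% of Lyve1 macrophages and in 30.5% of Ly6c2-gated cells. After each cell was thinned to 2000 UMIs, to remove differences in depth, these shares were 17.6% and 13.9%. In precursor B cells, which should lack the gene, Ccl3 was found in 1.58% of cells as deposited (median depth 8920 UMIs) and in 0.568% after thinning. In erythroid cells it had no UMI in 58 cells. The authors had already removed ambient RNA, so these shares are what remained after that step. The thinned shares of Lyve1 macrophages and Ly6c2-gated cells were above that of precursor B cells. Granulocyte precursors, also chosen as a class that should lack the genes, carried Ccl3 in 26.2% of cells and in 9.58% after thinning. Classes of 50 or more cells were put in order of level, and basophils (39 cells) were kept as an exception to that limit. These 28 classes, without plasma cells (30 cells), gave 27 neighboring pairs. Of these 1, basophils (2 to 14 cells a library) and NK cells, had library ranges that did not overlap. The share of all genes apart between neighboring classes was not computed.

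Within the Ly6c2 gate, pooled levels differed between cells high and low in C1q, a split that was chosen after the data were seen, as were the genes Arg1 and Hspa1a given with it. Cells with fewer than 3 C1q UMIs had 208 CPM of Ccl3, and cells with 3 or more had 99.9 CPM. Ccl4 and Ccl5 went the other way. Ccl4 had 288 CPM in the former and 392 CPM in the latter, and Ccl5 had 20.8 and 85.4 CPM. Over libraries Ccl3 ran from 84.8 to 311 CPM in the cells low in C1q and from 36.1 to 166 CPM in those with C1q, and these ranges overlapped. Ccl5 ran from 0.81 to 49.9 CPM and from 0 to 207 CPM, which overlapped too. So did Ccl4, with 117.5 to 535.9 CPM and 192.3 to 585.7 CPM. Arg1, an arginase gene of macrophages, had 31.0 CPM in the cells low in C1q and 184 CPM in those with C1q, and the heat shock gene Hspa1a 503 and 117 CPM. The library ranges of Arg1 and of Hspa1a also overlapped between these cells. Hspa1a was found in 36.0% of the cells low in C1q and 36.8% of those with C1q.

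Ccl4 was also prominent in pDC, the dendritic cells known for type I interferon. Ccl4 stood at 1863 CPM (1824 to 1902) in 397 pDC, and 73.6% of them (69.0 to 77.6) carried a UMI. The 6 libraries ran from 1227 to 2737 CPM with a median of 1975 CPM. In the same cells Ccl3 stood at 80.3 CPM. NK cells had 1281 CPM of Ccl4 (420 to 2345 over libraries), type 1 conventional dendritic cells (cDC1) 735 CPM and progenitors 730 CPM. Progenitors were gated from the stem cell genes Meis1, Mecom, Angpt1, Cd34 and Hlf, and 58.5% of them carried Ccl4. After thinning, the share of Ccl4+ cells was 54.7% in pDC, 43.9% in NK cells and 32.5% in progenitors. In the classes chosen as lacking the genes it was 1.71% (precursor B cells) and 14.3% (granulocyte precursors). The order of levels was basophils, pDC, NK cells, cDC1, progenitors and then granule-low neutrophils. Of the 27 neighboring pairs 1, basophils and pDC, had library ranges that did not overlap, again without a share of all genes beside it.

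Ccl3 and Ccl4 did not keep 1 ratio across the classes. These ratios compare UMIs of the same pair of transcripts, so that differences between classes do not depend on transcript length. In pDC there were 23.2 Ccl4 UMIs for each Ccl3 UMI (19.6 to 29.5 over the 5 libraries with 10 or more Ccl3 UMIs). NK cells had 5.26 (2.23 to 7.07 over 6 libraries), granule-low neutrophils 3.2 (2.33 to 4.05) and Ly6c2-gated cells 1.73 (1.16 to 3.30). Basophils had 1.75 (1.24 to 2.92) and Lyve1 macrophages 1.24 (0.234 to 1.76). The pDC range lay above that of each other class with a value in 2 or more libraries.

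**Figure D3:**
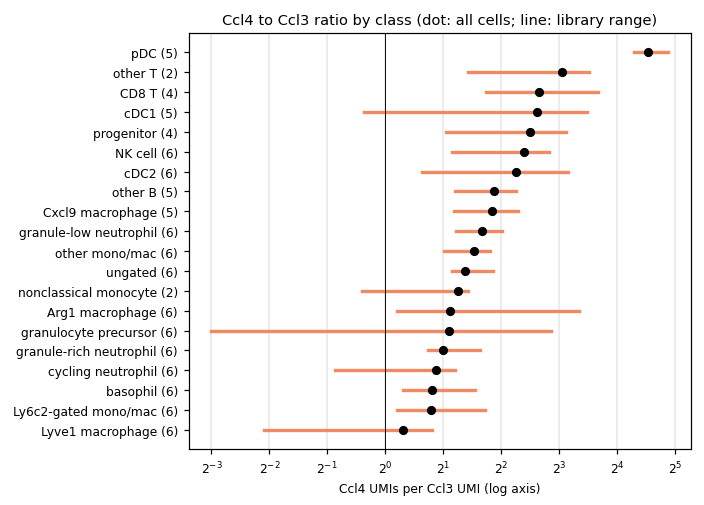
Number of Ccl4 UMIs per Ccl3 UMI in each class, on a log axis. The dot is the value over all cells, the line runs from the lowest to the highest library with 10 or more Ccl3 UMIs, and the number in brackets counts those libraries. The pDC value of 23.2 lies to the right of all other classes.

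Neutrophils were divided at 1% of UMIs from the granule genes Ltf, Camp, Ngp and Lcn2, which are transcribed before the cells mature. Of the 9940 noncycling cells, 432 lay close to that value (0.8% to 1.2%). Granule-low cells had 480 CPM of Ccl4 (351 to 905 over libraries) and granule-rich cells 85.0 CPM (49.9 to 200.3). The library ranges did not overlap. Such a difference was common in this pair of classes, because 26.3% of the 5869 genes tested were above without overlap in granule-low cells. Ccl3 had 150 CPM (93.7 to 336) in granule-low and 42.6 CPM (17.53 to 119) in granule-rich cells, higher in the granule-low cells of 6 of 6 libraries but with ranges that overlapped. After thinning, 17.1% of granule-low and 5.32% of granule-rich cells carried Ccl4. Cycling neutrophils had 53.9 CPM of Ccl4 and 29.4 CPM of Ccl3.

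Among macrophages and conventional dendritic cells the ranges of Ccl3 and Ccl4 overlapped. Arg1 macrophages had 114 CPM of Ccl3 and 247 CPM of Ccl4, with library ranges of 15.4 to 302 CPM and 70.5 to 537 CPM in the 5 libraries with 10 or more of these cells. Ccl3, Ccl4 and Ccl5 overlapped between Arg1 and Lyve1 macrophages, where 20.9% of 8300 genes were apart in either direction. The same 3 chemokines overlapped between Arg1 macrophages and Ly6c2-gated cells, where 14.8% of 8067 genes were apart, and between cDC1 and type 2 dendritic cells (cDC2), where 15.9% of 8019 genes were. Xcl1 was too low in these classes to be compared. In cDC1, Ccl4 ran from 63.9 to 1326 CPM over 5 libraries, and in cDC2 it ran from 311 to 828 CPM.

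Ccl5 was highest in NK cells. NK cells had 6016 CPM of Ccl5 (5927 to 6107), and 94.5% of 274 cells (91.2 to 96.7) carried a UMI, with 67.0 UMIs per positive cell. The libraries had 5171, 6392, 4330, 8223, 4834 and 7854 CPM, libraries 1 to 6 in turn. Ccl5 ranked 4 among all genes by UMI count in NK cells. CD8 T cells had 3104 CPM, other T cells 2056 CPM, γδ T cells 1958 CPM, CD4 T cells 298 CPM and regulatory T cells 91.1 CPM. Other T cells were those outside the regulatory and γδ T gates with UMIs of neither or both of Cd4 and Cd8 (Cd8a or Cd8b1). A CD4 or CD8 T cell whose Cd4 or Cd8 mRNA was not captured would also fall in this class. In precursor B cells Ccl5 had 4 UMIs in 886 cells (0.354 CPM), and after thinning 0.114% of them carried it, against 91.1% of NK cells.

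The NK and CD8 T cell levels of Ccl5 were apart in their libraries. In CD8 T cells Ccl5 ran from 2031 to 4197 CPM over 6 libraries, below the lowest NK library (4330 CPM). Of 8176 genes tested, 5.12% were above without overlap in NK cells. CD8 T cells in turn were above CD4 T cells (8.49 to 1141 CPM), where 2.56% of 8256 genes were. NK cells were above CD4 T cells in all 4 chemokines, a call made for 5.13% of 8493 genes. Against CD8 T cells, NK cells were also apart in Ccl3 (131 to 343 CPM in NK cells, 0 to 119 CPM in CD8 T cells), while Ccl4 and Xcl1 overlapped although NK cells were higher in 6 of 6 libraries for each.

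Ccl5 had a further source among dendritic cells and macrophages. Migratory dendritic cells, gated from Ccr7, Fscn1, Cacnb3, Il4i1, Nudt17 and Ccl22, had 3849 CPM of Ccl5 (3740 to 3961) and 82.9% of 70 cells carried it. The libraries ran from 894 to 9102 CPM with a median of 2409 CPM, on 6 to 20 cells each, and the single cell with the most Ccl5 UMIs in the table (624) was of this class. In the 3 libraries with 10 or more cells of both classes, migratory dendritic cells had 894 to 7324 CPM and cDC2 0.772 to 114 CPM, and 13.2% of 7942 genes were above without overlap. These cells had no Xcl1 UMI, and 3 UMIs of the class would be 2.45 CPM. Cxcl9 macrophages, gated from the interferon-γ targets Cxcl9, Gbp5, Gbp2 and Iigp1, had 429 CPM of Ccl5 over all 337 cells. In the 4 libraries with 10 or more of these cells and of Arg1 macrophages they had 159 to 512 CPM, above the 0 to 44.3 CPM of Arg1 macrophages, a call made for 4.91% of 7796 genes. In cDC1, Ccl5 had 1 UMI in 87 cells.

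Xcl1 was found in the fewest cells of the 4. NK cells had 1286 CPM of Xcl1 (1245 to 1328), and 78.8% (73.6 to 83.3) of them carried it. The libraries had 1545, 1455, 1352, 656, 1234 and 1196 CPM, with library 4 the lowest. Other T cells had 786 CPM (420 to 1002 over libraries), CD8 T cells 501 CPM (185 to 749), γδ T cells 198 CPM (32.6 to 434) and CD4 T cells 75.5 CPM (0 to 252). Regulatory T cells had 2 UMIs in 128 cells. In precursor B cells Xcl1 had 1 UMI in 886 cells, and Ly6c2-gated cells, with 4153 cells, had 34 UMIs (0.446 CPM). No neighboring pair in the order of classes for Ccl5 or for Xcl1 had library ranges that did not overlap.

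Ccl4 was found more often in cells that carried Ccl3 than in cells of the same class that did not. Among cells thinned to 2000 UMIs, 48.0% of Ccl3+ Ly6c2-gated cells carried Ccl4, against 11.3% of those without Ccl3. The shares were 47.3% and 13.5% in granule-low neutrophils and 34.0% and 8.02% in Lyve1 macrophages. In NK cells they were 83.0% and 35.7%. The Ccl3+ cells had the higher share in each library with 5 or more Ccl3+ cells of these classes.

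Ccl5 and Xcl1 were found together in T cells. In CD8 T cells 46.5% of Ccl5+ cells carried Xcl1 (39.2 to 54.0), against 6.67% of cells without Ccl5 (3.09 to 13.8), in the same direction in 6 of 6 libraries. Other T cells had 61.5% and 9.03%. In NK cells, where nearly all carried Ccl5, the shares were 60.3% of 247 Ccl5+ cells and 12 of 24 others, and the intervals overlapped. For Ccl4 and Xcl1 in NK cells the intervals also overlapped, with Xcl1 in 57.1% of Ccl4+ cells (48.2 to 65.7) and 61.2% of the others (53.3 to 68.6). Cells of a library are not replicates, and these shares describe the cells.

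The genes found beside Ccl3 and Ccl4 within a class were compared in the same thinned cells. A gene was called higher beside a chemokine when its CPM in positive cells was above that in negative cells in each of the 6 libraries. A gene without a difference can also meet this rule by chance, and that share was not computed for thinned cells. In Ly6c2-gated cells, 573 Ccl3+ cells were set against 3563 others, and 3.48% of 7989 genes were called. Ccl4 had the largest ratio (9.02 times, 1387 against 154 CPM). It was followed by the inducible heat shock protein genes Hspa1a (4.78 times) and Hspa1b (4.36 times), the AP-1 subunit Jun (3.50), the transcription factors Klf2 (3.16) and Atf3 (2.93), Rnd3 (2.72) and the niacin receptor Hcar2 (2.64). For Ccl4 in the same class, 3.75% of 7900 genes were called, led by Ccl3 (6.79 times), the monocyte chemokine Ccl7 (4.08), Plk2 (3.67), Hcar2 (2.88), Ccl2 (2.70), Hspa1a (2.63), Egr2 (2.63) and Irg1 (2.54), the enzyme that makes itaconate.

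Immediate early genes, which are transcribed within minutes of a stimulus, were mostly higher beside both chemokines in Ly6c2-gated cells. Of the 10 genes listed, 7 were called for Ccl3 (Fos, Fosb, Jun, Egr1, Atf3, Dusp1 and Zfp36), with a median ratio of 1.85 over the list, against 1.00 over all genes tested. For Ccl4, 9 of 10 were called with a median ratio of 1.81, against 0.994 over all genes. All 3 heat shock genes listed (Hspa1a, Hspa1b and Dnajb1) were called for Ccl3 and 2 of 3 for Ccl4. Of the 8 nuclear factor κB targets, 7 were tested and 3 called for Ccl3 (Nfkbiz, Tnfaip3 and the neutrophil attractant Cxcl2), and 4 of 8 for Ccl4 (Nfkbiz, Tnf, Cxcl2 and Ptgs2). Il1b had 1373 CPM in Ccl3+ and 1609 CPM in other Ly6c2-gated cells and was not called. Immediate early and heat shock genes can also be induced while tissue is digested, and the part of that step in these ratios was not tested.

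**Figure D4:**
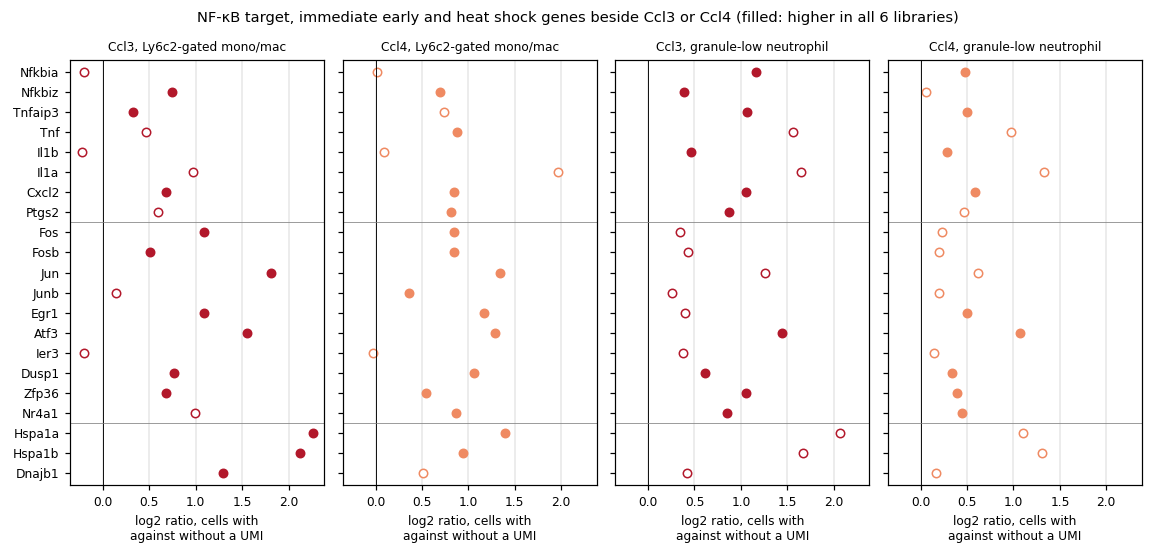
Log2 ratio of the level in cells with against cells without a UMI of Ccl3 or Ccl4, in Ly6c2-gated cells and granule-low neutrophils, for nuclear factor κB targets (top), immediate early genes (middle) and heat shock genes (bottom). Filled symbols were higher in all 6 libraries, which 7 of 10 immediate early genes were for Ccl3 in Ly6c2-gated cells and 4 of 10 in neutrophils.

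In granule-low neutrophils, 520 Ccl3+ cells were set against 4422 others, and 8.95% of 5698 genes were called. The largest ratios were those of Ccl4 (7.52 times), the macrophage growth factor Csf1 (5.85), Rasgef1b (5.38), the adhesion molecule Icam1 (5.32), the chemerin-binding receptor Ccrl2 (4.48), the lectin Clec4n (4.38) and the survival gene Bcl2a1d (4.08). Of the 8 nuclear factor κB targets, 6 were called (Nfkbia, Nfkbiz, Tnfaip3, Il1b, Cxcl2 and Ptgs2), with a median ratio of 2.09 against 1.14 over all genes tested. Cxcl2 stood at 6616 CPM in Ccl3+ and 3175 CPM in other cells. Of the 10 immediate early genes, 4 were called, and of the 3 heat shock genes none was, although Hspa1a was higher in 5 of 6 libraries (80.8 against 19.3 CPM).

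For Ccl4 in granule-low neutrophils, with 843 Ccl4+ cells and 4099 others, 7.69% of 5582 genes were called. Ccl3 (7.58 times), Rasgef1b (4.23), Csf1 (3.24), Bcl2a1d (2.85), Clec4n (2.68), Snx8 (2.59), Ralgds (2.59) and Ccrl2 (2.55) had the largest ratios. Of the nuclear factor κB targets 4 of 8 were called, of the immediate early genes 5 of 10 and of the heat shock genes 0 of 3. The receptor Ccr1 was called beside both chemokines, with 1159 CPM in Ccl3+ and 882 CPM in Ccl3- neutrophils. In Ly6c2-gated cells Ccr1 was not called, with 186 CPM in Ccl3+ and 261 CPM in other cells, and was higher in Ccl3+ cells in 1 of 6 libraries. For Ccl4 in that class it had 235 and 254 CPM. Monocytes and macrophages placed in no subset, through too few markers or a tie between subsets, formed the class other monocyte/macrophage. In that class, 208 Ccl4+ cells were set against 972 others and 1.68% of 8095 genes were called. This was the smallest share called in any of these comparisons, and how many of the calls arose by chance was not tested. Ccl3 (8.33 times), Ccl7 (3.14), Bcl6 (3.06), Ccl2 (2.98), Aim2 (2.97), Rsad2 (2.35), Ddt (2.28) and Hspa1a (2.17) led there, with 0 of 8 nuclear factor κB targets and 2 of 10 immediate early genes called.

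Beside Ccl5, some of the listed cytotoxic genes were higher in CD8 T cells. In this class 172 Ccl5+ cells were set against 90 others, of which each library held 5 to 19, and 2.82% of 8448 genes were called. Of the 5 cytotoxic genes listed, 3 were called. The granzyme Gzma had 279 against 11.1 CPM, the granzyme Gzmk 61.1 against 0 CPM and the granule protein Nkg7 1061 against 428 CPM. Gzmk had no UMI in the Ccl5- cells, so its call needed only a UMI in the Ccl5+ cells of each library. Gzmb (387 against 128 CPM, higher in 5 of 6 libraries) and Prf1 (11.6 against 11.1 CPM, higher in 3 of 6) were not called. Xcl1 (608 against 88.9 CPM) and Ccl4 (500 against 11.1 CPM) were also called. The genes with the largest ratios among those with 10 or more UMIs in each library were Klrk1 (9.13 times), an activating receptor, Xcl1 (6.84), Abcb1a (4.59), Rgs1 (4.42), the integrin chain Itgb1 (3.79), the interleukin 12 receptor chain Il12rb2 (3.34), Anxa2 (3.31) and Ctla2a (3.13). For each of these but Itgb1, the few Ccl5- cells of some library had no UMI of the gene. A higher level in that library then needed only a UMI in the Ccl5+ cells. Ifng, the gene of interferon-γ, stood at 206 against 5.56 CPM, higher in 5 of 6 libraries and not called. None of the immediate early and heat shock genes was called. In NK cells only 24 cells lacked Ccl5, 2 to 7 a library, and 6.38% of 8745 genes were called there, including Gzma, Prf1 and Xcl1, and with so few cells the partners of Ccl5 in NK cells are not described further.

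Basophils, too few for that comparison, also carried other secreted factors (Il6, Il4 and Il13 were chosen after their values were seen). Il6 stood at 3886 CPM (2378 to 11864 over libraries), Il4 at 1500 CPM (91.5 to 7927) and Il13 at 679 CPM (65.0 to 7768). Mast cells had 104 CPM of Il6, 480 CPM of Il4 and 586 CPM of Il13. Of the nuclear factor κB targets, Cxcl2 had 3346 CPM, Il1b 8056 CPM, Nfkbia 3517 CPM and Ptgs2 1558 CPM in basophils. Cxcl2 was found in 33.3% of basophils. Granule-low neutrophils had 3242 CPM of Cxcl2, 6648 CPM of Il1b, 637 CPM of Nfkbia and 906 CPM of Ptgs2. Mast cells had 119 CPM of Cxcl2 and 289 CPM of Il1b. Of the 8 listed targets, 5 had the higher pooled level in basophils and 3 in mast cells, namely Nfkbiz (1573 CPM in basophils and 2109 CPM in mast cells), Tnfaip3 (1211 and 2066 CPM) and Tnf (40.1 and 382 CPM). Of the 10 immediate early genes, 9 had the higher pooled level in mast cells, among them Egr1 (628 and 4764 CPM) and Fos (197 and 6030 CPM), and Ier3 had the higher level in basophils (4539 and 528 CPM). These pooled levels were not tested, and the share of all genes with the higher level in either class was not computed. The heat shock gene Hspa1a had 3.65 CPM in basophils and 226 CPM in mast cells. The basophil value of Hspa1a was 1 UMI. In Ly6c2-gated cells Hspa1a had 407 CPM and Fos 1137 CPM, and Atf3 had 413 CPM there and 21.9 CPM in basophils. The other listed immediate early genes had the higher pooled level in basophils. Among them were Egr1 (71.8 CPM in Ly6c2-gated cells) and Jun (992.5 CPM in basophils and 409.8 CPM in Ly6c2-gated cells). Of the other heat shock genes, Dnajb1 was higher in basophils (241 and 58.2 CPM) and Hspa1b in Ly6c2-gated cells (3.65 and 170 CPM). The Cxcl2 level of basophils ran from 0 to 23037 CPM over libraries and that of Il1b from 5854 to 9995 CPM.

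Receptors for these chemokines were found in classes that differed from gene to gene. Ccr1 was highest in granule-low neutrophils, at 815 CPM (699 to 1066 over libraries) and in 94.5% of cells. Granule-rich neutrophils had 288 CPM (248 to 370) and Ly6c2-gated cells 261 CPM (174 to 394). Ccr3, a receptor of Ccl5 known from eosinophils and basophils, had 47.4 CPM in basophils (0 to 130 over libraries) and 37.5 CPM in regulatory T cells (0 to 47.9). The basophil value was 13 UMIs in 9 of 39 cells and that of regulatory T cells 44 UMIs in 16 of 128 cells. Ccr3 was at most 10.3 CPM elsewhere, in CD4 T cells, where 1 cell held 20 of the 21 UMIs.

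Among the gated classes Xcr1 was highest in cDC1. It stood at 170 CPM in cDC1 (90.8 to 222 over libraries), and 67.8% of 87 cells carried it, while the next class, type 2 innate lymphoid cells, had 3.66 CPM. The ligand, Xcl1, had no UMI in cDC1, and 3 UMIs of that class would be 1.42 CPM. Of the receptors that bind chemokines without G protein signaling, Ackr1 and Ackr2 were highest in fibroblasts (27.4 and 9.63 CPM). Ccrl2, listed with them but named above as chemerin-binding, was highest in Cxcl9 macrophages (250 CPM) and granule-low neutrophils (217 CPM). It is not given here as a receptor of the 4 chemokines.

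**Figure D5:**
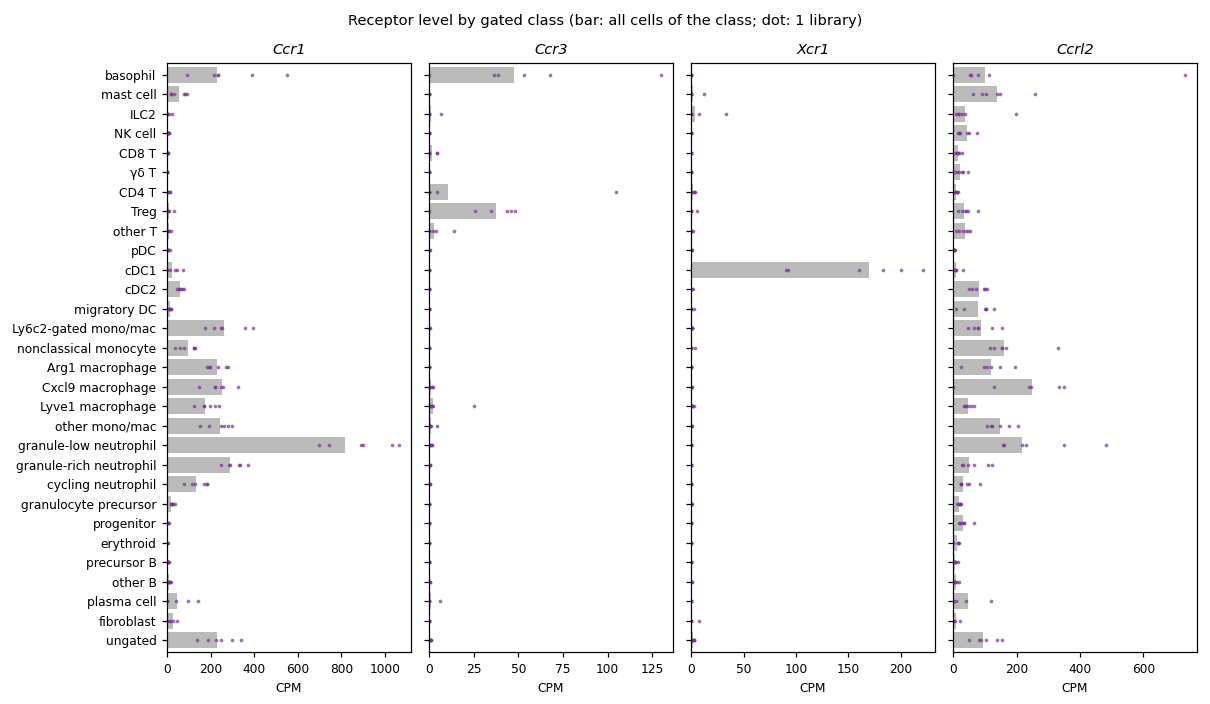
Level in CPM of Ccr1, Ccr3, Xcr1 and Ccrl2 in each gated class (bars, all cells of the class) and in each barcode library (dots). Ccr1 peaks at 815 CPM in granule-low neutrophils and Xcr1 at 170 CPM in cDC1.

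The genes whose class pattern was most like that of each chemokine were found over the 27 gated classes of 50 or more cells, which leaves out basophils. The measure was Pearson's r of log2(CPM + 1) among 10902 genes at 20 CPM or more in some class. The classes share libraries and differ in depth, so r is a description. For Ccl3 the closest were Ccl4 (0.87), Tyrobp (0.81), Slc25a45 (0.79), Cd244 (0.79) and Fcer1g (0.78). For Ccl4 they were Ccl3 (0.87), Cd244 (0.81), Bcl2l11 (0.75), Bend4 (0.74) and Tm6sf1 (0.73). Tyrobp and Fcer1g encode signaling adaptors of activating receptors, and Cd244 is a receptor of NK and myeloid cells. For Ccl5 they were AW112010 (0.84), Tbx21 (0.83), Prex1 (0.82), Il12rb2 (0.81) and Gbp4 (0.80), of which Tbx21 encodes the transcription factor T-bet. For Xcl1 they were Samd3 (0.96), Qrfp (0.94), Ctsw (0.94), Cd160 (0.93) and Klrc1 (0.93), of which Klrc1 is an NK receptor gene and Ctsw a cathepsin of cytotoxic cells. Between the members, Ccl5 and Xcl1 had r of 0.76, and Ccl3 and Xcl1 0.03.

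The ungated cells carried the same genes without a class. Ccl3 stood at 152 CPM and Ccl4 at 396 CPM in them. When the margin of 0.2 between lineages was dropped, some of these cells joined the lineage with their highest share of markers. The next lineage was less than 0.2 below, so their type is uncertain. In this way 1040 cells joined the monocytes and macrophages and held 7.61% of all Ccl3 UMIs. Only 8 joined the basophils, and these held 1.99% of all Ccl3 UMIs at 5751 CPM. Cells that joined the T cells (122 cells) held 12.98% of the Xcl1 UMIs and those that joined the NK cells (38 cells) 8.85%.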

How the data were processed

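Sorted CD45+ synovial cells, 2 PBS and 4 PEPITEM samples, were profiled by 3′ single-cell RNA sequencing. Per the labels and the study's methods, the authors aligned reads to mm10 with Cell Ranger 7, removed ambient RNA with SoupX and doublets with DoubletFinder, and filtered cells with Seurat. The authors deposited whole UMI counts in 1 table, not scaled for depth, of all samples. The table also stores 1724738 entries of 0, and 507 of the Ccl3, 968 of the Ccl4, 674 of the Ccl5 and 113 of the Xcl1 entries were of this kind. Such entries are read here as counts lowered to 0 by the ambient correction. No doublet caller was run again.

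The 4 members, the marker lists and the class pairs were chosen with earlier results of these data known. Barcode numbers were not linked to samples, so no treatment test was run and libraries are given singly or as ranges. Each library held 47273569 to 123367661 UMIs, and shares at equal depth used 2000 UMIs a cell (seed 1), which left out 579 cells. Levels are UMIs of a gene per 1000000 UMIs of a class. Library ranges of the chosen class pairs were compared over genes at 10 CPM or more in either class and libraries with 10 or more cells of both. Those of neighboring classes in the order of level, basophils among them, used each library with any cell of the class and no CPM limit. Co-detection was run where each library held 20 or more positive cells. Genes named beside the lists were the 5 most alike in pattern and the 8 with the largest ratio among those called with 10 or more UMIs in each library. The lists were receptors, atypical receptors, cytokines secreted with these chemokines (Ifng, Tnf, Csf2 and Il2), cytotoxic, nuclear factor κB, immediate early and heat shock genes. The work used Python 3.11.15, numpy 2.4.6, scipy 1.17.1 and scanpy 1.11.5. Both many-gene counts were run on simulated counts for NK and CD8 T cells and for granule-low and granule-rich neutrophils. Those counts held counting error only, without spread between libraries, and the co-detection setting of thinned cells was not simulated. Alternatives were a margin of 0.4 or none, Leiden clusters, each library left out, deeper cells, and other averages. Some genes of these lists and rules are not reported here. The marker gates were rebuilt here, since no deposited annotation of cells was used.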

Additional observations from a re-analysis of the deposited data

How the results depend on the processing

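No paired analysis was possible because the columns of the table carry no sample or replicate numbers that match the labels. The planned treatment comparison (edgeR) was not run for the same reason. Basophils stayed highest for Ccl3 and Ccl4, and NK cells for Ccl5 and Xcl1, with no margin between lineages and with Leiden clusters. Under a margin of 0.4, 23 basophils were left, fewer than the 30 cells asked of a class in this order. Among the classes that remained, NK cells then led for Ccl3 (258 CPM) and pDC for Ccl4 (1859 CPM), and NK cells still led for Ccl5 and Xcl1. Of 591 alternative values, 321 moved by more than their counting interval and 270 did not.

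With a margin of 0.4, no margin, Leiden clusters, the mean over cells and the median of libraries, in this order, Ccl3 in basophils was 18654, 11423, 11735, 19523 and 10420 CPM and Ccl4 was 39472, 20045, 20320, 34225 and 20414 CPM. The share of basophils with Ccl4 was 100% with a margin of 0.4 and with Leiden clusters. With a margin of 0.4, no margin, Leiden clusters and the median of libraries, Ly6c2-gated cells held 14.38%, 28.39%, 38.06% and 19.79% of the Ccl3 UMIs and 9.997%, 19.81%, 28.85% and 14.29% of the Ccl4 UMIs. In NK cells Ccl5 was 6457 CPM with a margin of 0.4, 4338 CPM with Leiden clusters, 8003 CPM as a mean over cells and 5782 CPM as a median of libraries. The NK share of Ccl5 UMIs was 20.4%, 30.38% and 33.1% with a margin of 0.4, no margin and Leiden clusters, and 96.95% of NK cells carried Ccl5 with a margin of 0.4 and 91.14% after thinning. Xcl1 in NK cells was 1192, 1430 and 1074 CPM with these 3 gates, and NK cells held 21.05%, 40.88% and 45.81% of its UMIs, or 34.26% as a median of libraries. NK cells with Xcl1 were 59.41% after thinning and 70.8% at 2 or more UMIs. The causes of these moves were not tested.

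With 1 library left out in turn, Ccl3 in basophils ran from 11817 to 24158 CPM and Ccl4 from 20527 to 40991 CPM, lowest without library 1 and highest without library 2, and the share of basophils with Ccl3 stayed at 100% and that with Ccl4 was 93.33% to 100%. Ly6c2-gated cells held 20.74% to 24.44% of the Ccl3 and 14.65% to 16.89% of the Ccl4 UMIs. In NK cells Ccl5 was 5694 to 6388 CPM, in 94.09% to 95.24% of cells and with 24.24% to 28.34% of UMIs, and Xcl1 was 1223 to 1378 CPM, in 77.45% to 79.92% of cells and with 29.86% to 35.75% of UMIs. The small number of basophils, 2 to 14 a library, limits their level, and free RNA below the level seen in precursor B cells cannot be told apart from expression at this depth.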
